A study of Homo sapiens with 12 samples.

Results

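The YAP and TAZ target genes described here are 10 of the 62703 genes in the count table: CCN1, CCN2, ANKRD1, AMOTL1, AMOTL2, LATS2, AJUBA, CRIM1, ARHGEF17 and ASAP1. They were chosen by name, through the Ensembl identifier that carries each symbol, and no cut-off on a measured value was applied. The choice of these genes, and of the lists described below, was made with earlier results of these data known. All 10 passed the filter on low counts, and they are among the 21567 genes tested.

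YAP (gene YAP1) and TAZ (gene WWTR1) are transcriptional coactivators that bind DNA through the TEAD factors. The Hippo kinases MST1 and MST2 (genes STK4 and STK3) activate LATS1 and LATS2, which phosphorylate YAP and TAZ and keep them out of the nucleus. Actin tension and cell spreading favour nuclear YAP and TAZ, and several of their target genes encode proteins that feed back on the pathway. In the bile duct, YAP takes part in cholangiocyte identity and in the ductular response to injury.

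The cells were H69, an immortalised line of human cholangiocytes (bile duct epithelium). RNA sequencing covered 12 libraries in 4 groups of 3. The TGFβ + Aramchol libraries came from cells given TGFβ at 10 ng/mL together with Aramchol at 30 µM, the TGFβ libraries from cells given TGFβ alone, the Aramchol libraries from cells given Aramchol alone, and the vehicle libraries from cells given neither agent. All 4 groups shared 6 h of serum starvation before an overnight treatment in serum-free medium. Aramchol is a conjugate of a bile acid and a fatty acid that inhibits stearoyl-CoA desaturase. The labels do not say whether the 3 libraries of a group came from separate cultures, so the p-values below measure library-to-library spread alone, and that spread may be technical.

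The 10 genes fall into groups by what their products do. CCN1 (ENSG00000142871, chr1:85580761-85584589 in GRCh38) and CCN2 (ENSG00000118523, chr6:131948176-131951372) encode secreted matricellular proteins that bind integrins. ANKRD1 (ENSG00000148677, chr10:90912096-90921087) encodes an ankyrin repeat protein found in the nucleus and, in muscle, at the sarcomere. AMOTL1 (ENSG00000166025, chr11:94706431-94876748) and AMOTL2 (ENSG00000114019, chr3:134355347-134375479) encode angiomotin family scaffolds that bind YAP and hold it at cell junctions. LATS2 (ENSG00000150457, chr13:20973036-21061586) encodes the kinase that phosphorylates YAP and TAZ, and AJUBA (ENSG00000129474, chr14:22971177-22982551) encodes a LIM domain scaffold that restrains the LATS kinases. CRIM1 (ENSG00000150938, chr2:36355778-36551135) encodes a transmembrane protein that binds bone morphogenetic proteins, ARHGEF17 (ENSG00000110237, chr11:73308276-73369388) an exchange factor for small GTPases, and ASAP1 (ENSG00000153317) a GTPase activating protein for Arf. The spans were taken from the gene coordinates deposited with the counts and cover exons and introns.

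The promoters of CCN2 and ANKRD1 are shown because they hold repeated copies of the TEAD core motif, GGAATG or its reverse complement CATTCC. RefSeq promoter sequences (GRCh38.p14) were found for 6 of the 10 genes, as 8 windows of the 250 bases before an annotated start, since AMOTL2 and AJUBA have 2 starts each. The windows for CCN2 (chr6:131951373-131951622, minus strand) and ANKRD1 (chr10:90921088-90921337, minus strand) are printed whole. For AMOTL2 (chr3:134374501-134374526, minus strand) and AJUBA (chr14:22976886-22976911, minus strand) only 26 bases around the core before the second start are shown. Capitals mark the TEAD core, and all 4 sequences read 5′ to 3′ on the strand of the gene.
CCN2: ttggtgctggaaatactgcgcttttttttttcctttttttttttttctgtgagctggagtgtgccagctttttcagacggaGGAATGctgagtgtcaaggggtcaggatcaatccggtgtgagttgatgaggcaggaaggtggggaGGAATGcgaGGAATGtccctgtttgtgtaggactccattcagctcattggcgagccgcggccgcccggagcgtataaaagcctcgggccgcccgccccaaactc
ANKRD1: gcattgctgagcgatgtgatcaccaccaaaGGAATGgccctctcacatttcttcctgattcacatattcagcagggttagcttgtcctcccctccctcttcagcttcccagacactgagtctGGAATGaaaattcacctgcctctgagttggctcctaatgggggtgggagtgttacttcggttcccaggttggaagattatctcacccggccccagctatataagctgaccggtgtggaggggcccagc
AMOTL2: gaaactctcaCATTCCtggcatagca
AJUBA: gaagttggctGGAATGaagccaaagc

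CCN2 held 3 TEAD cores, whose first bases lay 169, 104 and 95 bases before the start. ANKRD1 held 2, at 220 and 128 bases before its start. The second start of AMOTL2 had 1 core at 69 bases and the second start of AJUBA had 1 core at 59 bases. None was found in the windows of AMOTL1 and LATS2 or before the first starts of AMOTL2 and AJUBA. The only AMOTL1 window (chr11:94768106-94768355, plus strand) lies inside the span of that gene. The bases before the first base of the AMOTL1 span were therefore not searched. The windows before the second starts of AMOTL2 (chr3:134374448-134374697) and AJUBA (chr14:22976843-22977092), which hold their cores, also lie inside the spans of those genes. The window before the first start of AMOTL2 overlaps the span of that gene in part. Over 35116 promoter windows of the same length, 11.9% held at least 1 core on either strand, 0.940% held at least 2 and 0.0826% held at least 3. The SMAD element CAGAC, or GTCTG on the other strand, was in 38.0% of these windows. CCN2 had 1 such element, ANKRD1, AMOTL1 and the first start of AJUBA had 2 each, and the first start of AMOTL2 had 1. In ANKRD1, a GTCTG ended on the first base of the nearer TEAD core, at 128 bases. The CArG box, the site of serum response factor (SRF), was in 1.16% of all windows and in none of the 8. A match is a description of these letters and not a measured binding site.

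Levels between genes were compared per exonic length, as length-scaled transcript abundance (TPM) averaged over the 12 libraries. CCN2 averaged 250.0 TPM, CCN1 229, CRIM1 115, AJUBA 113, ASAP1 83.3, ANKRD1 60.9, AMOTL2 52.9, LATS2 26.8, ARHGEF17 25.8 and AMOTL1 9.44 TPM. The order differed by group: CCN2 led with TGFβ + Aramchol (365 TPM, against 249.7 for CCN1) and with TGFβ (432, against 288 for CCN1). With Aramchol CCN2 (89.3 TPM) lay below CCN1 (174), CRIM1 (143) and AJUBA (139.7), and with vehicle CCN2 (113) lay below CCN1 (205), CRIM1 (148) and AJUBA (124). The range over libraries was widest for CCN2, from 64.4 to 451 TPM, and CCN1 ran from 153 to 301 TPM. Several neighbours in this order overlapped over the libraries: CRIM1 ran from 76.3 to 158 TPM and AJUBA from 80.7 to 149.8 TPM, and LATS2 from 24.1 to 29.3 TPM and ARHGEF17 from 23.4 to 29.3 TPM.

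Total counts per library ran from 52279922 to 70339925. The bile duct markers KRT7, KRT19, EPCAM, SOX9, SLC4A2 and AQP1 passed the filter, while CFTR and SCTR stayed at or below 0.149 CPM in every library, where CPM is counts per 1e6 reads of the TMM-scaled library total. The leukocyte markers PTPRC, CD3E, LYZ and CD68 did not pass the filter. Of 6 fibroblast markers 4 passed, while COL3A1 stayed at or below 0.115 CPM. The 6 summed to 110.8 to 119 CPM with TGFβ + Aramchol and 133 to 149 CPM with TGFβ. The sums were 103 to 110.3 CPM with Aramchol and 91.3 to 119.8 CPM with vehicle. THY1 made up most of the sum, at 118 to 130 CPM with TGFβ and 73.8 to 101 CPM with vehicle. PDGFRA went the other way, at 5.76 to 7.94 CPM with TGFβ and 8.08 to 11.7 CPM with vehicle. In TGFβ against vehicle 2 of the 4 were higher and 1 lower, beside 18.9% higher and 18.1% lower among all tested genes. Of 5 hepatocyte markers APOB alone passed the filter. It had 1.67 to 2.23 CPM in the TGFβ + Aramchol libraries and 6.13 to 8.25 CPM in the Aramchol libraries. It averaged 1.68 ± 0.398 CPM with TGFβ and 8.52 ± 2.96 CPM with vehicle (SD, n = 3 each), and was lower in TGFβ against vehicle (log2 -2.35, SE 0.25, edgeR adjusted p = 1.56e-06). TTR was at 0 in every library and ALB was at or below 0.154 CPM. The endothelial markers summed to 7.27 to 15.0 CPM. The part of these markers in the results below was not tested. In bulk RNA, fewer cells of a type and less RNA per cell cannot be told apart.

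The libraries numbered 3 stood apart from those numbered 1 and 2 in the same group, and the vehicle library did so most. The labels do not say what the number stands for. Between 2 vehicle libraries, the chi-square of the counts per gene was 37.7 and 29.0 for replicate 3 against replicates 1 and 2, and 7.04 between replicates 1 and 2. With a term for number 3 beside the 4 group means, 5 of the 10 genes were lower in the libraries numbered 3 and 0 were higher, against 7.34% lower and 5.29% higher among all tested genes (12.6% in either direction, edgeR quasi-likelihood test, Benjamini-Hochberg adjusted p under 0.05). ANKRD1 was 1.49-fold lower (log2 change -0.57, SE 0.10, adjusted p = 0.000957), CCN2 1.37-fold lower (-0.45, SE 0.11, adjusted p = 0.00878), CCN1 1.18-fold lower (-0.24, SE 0.07, adjusted p = 0.0353), CRIM1 1.18-fold lower (-0.24, SE 0.04, adjusted p = 0.000829) and AMOTL2 1.13-fold lower (-0.18, SE 0.03, adjusted p = 0.00213).

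The gap between replicate 3 and the mean of replicates 1 and 2 was widest in vehicle for CCN1, CCN2 and ANKRD1. The same held, with smaller vehicle gaps, for AMOTL1, AMOTL2, LATS2, CRIM1 and ARHGEF17. In log2 CPM the gap was 0.01 with TGFβ + Aramchol, -0.07 with TGFβ, -0.25 with Aramchol and -0.71 with vehicle for CCN1. For CCN2 the 4 gaps, in the same order of groups, were -0.15, -0.16, -0.43 and -1.21. For ANKRD1 they were -0.28, -0.42, -0.40 and -1.25. In 6 of the 10 genes replicate 3 was the lower in all 4 groups, while AJUBA was higher in replicate 3 in the 3 treated groups and lower in vehicle. The share of all tested genes with either pattern was not counted, so these are descriptions only. Values of the 10 genes in comparisons with vehicle are given with and without vehicle replicate 3.

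**Figure D1:**
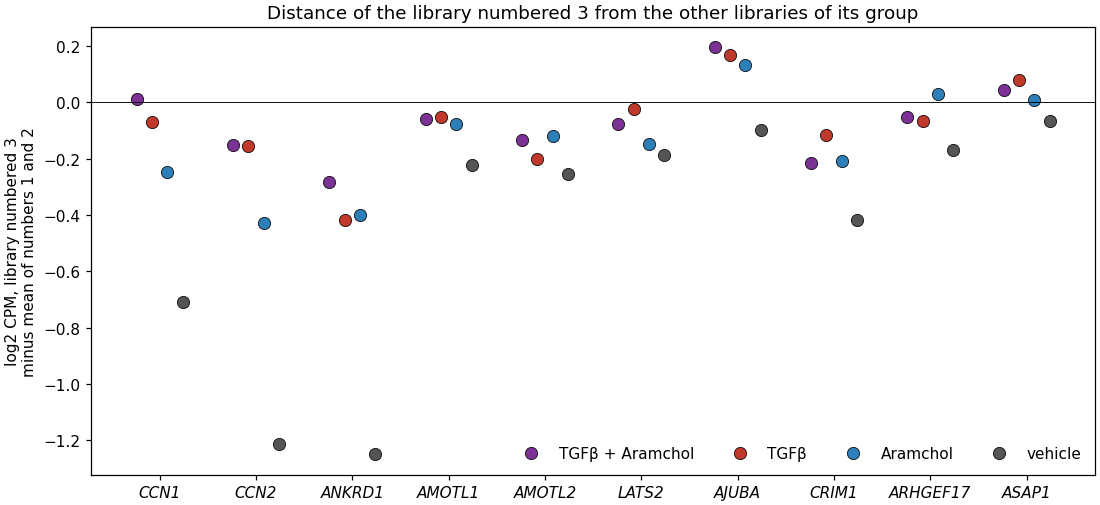
Difference in log2 CPM between the library numbered 3 and the mean of the libraries numbered 1 and 2, for each of the 10 genes in each of the 4 groups. The vehicle points of CCN1, CCN2 and ANKRD1 lie at -0.71, -1.21 and -1.25, below those of the 3 treated groups.

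TGFβ changed 6 of the 10 genes relative to vehicle, 4 upward and 2 downward, and the largest change was in CCN2. Among all tested genes 37.0% were called in this comparison, 18.9% higher and 18.1% lower. The median log2 fold change was 0.17 over the 10 genes and -0.03 over all tested genes. These medians were 0.05 and -0.02 without vehicle replicate 3, where 4 genes were higher and 3 lower. The secreted pair rose, AJUBA and CRIM1 fell, and ARHGEF17 and ASAP1 rose by less than 1.5-fold.

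CCN2 had 327, 331 and 295 CPM in the TGFβ libraries numbered 1, 2 and 3, against 97.3, 91.4 and 40.6 CPM in the vehicle libraries. The groups lay far apart, and the lowest library was vehicle replicate 3. CCN2 was 4.16-fold higher with TGFβ (log2 2.06, SE 0.22, adjusted p = 2.24e-06), and 3.37-fold higher without vehicle replicate 3 (adjusted p = 9.73e-10). CCN1 had 329.8, 350.4 and 324 CPM with TGFβ, against 257, 243 and 153 CPM with vehicle. All 3 TGFβ libraries were above all 3 vehicle libraries. The change was 1.54-fold (log2 0.62, SE 0.13, adjusted p = 0.0017), and 1.34-fold without vehicle replicate 3 (adjusted p = 0.000117).

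ANKRD1 had 46.2, 44.4 and 33.9 CPM with TGFβ, against 43.0, 42.8 and 18.0 CPM with vehicle. The groups overlapped, and TGFβ replicate 3 lay below vehicle replicates 1 and 2. The log2 difference of 0.26 (SE 0.23) did not pass the test (adjusted p = 0.419), and without vehicle replicate 3 it was -0.05 (SE 0.13, adjusted p = 0.828). ANKRD1 and CCN2, both of which carry repeated TEAD cores in the sequences above, thus had different values in this comparison, and the difference between the 2 genes was not itself tested.

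Among the genes whose products act back on the pathway, AJUBA fell. It had 150.4, 158 and 173 CPM with TGFβ, against 218, 208 and 199 CPM with vehicle, and no TGFβ library reached the vehicle range. The change was 1.30-fold lower (log2 -0.38, SE 0.07, adjusted p = 0.000393), with a log2 difference of -0.41 without vehicle replicate 3 (adjusted p = 0.000227). AMOTL2 had 108, 108 and 94.2 CPM with TGFβ, against 126, 119 and 103 CPM with vehicle. Its groups overlapped through vehicle replicate 3, and the log2 difference of -0.16 (SE 0.08) did not pass (adjusted p = 0.109). Without vehicle replicate 3 the difference was -0.24 and passed (SE 0.07, adjusted p = 0.0098). LATS2 had 46.6, 49.6 and 47.3 CPM with TGFβ, against 45.4, 44.7 and 39.6 CPM with vehicle. These did not overlap, but the log2 difference of 0.15 (SE 0.06) missed the threshold (adjusted p = 0.088). It was 0.09 without vehicle replicate 3 (adjusted p = 0.304). A fit that carried number 3 as a term gave 0.15, which passed (adjusted p = 0.0231). AMOTL1 averaged 29.9 ± 0.700 CPM with TGFβ and 28.1 ± 2.63 CPM with vehicle (SD, n = 3 each), a log2 difference of 0.09 (SE 0.08, adjusted p = 0.374), or 0.02 without vehicle replicate 3 (adjusted p = 0.854).

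CRIM1 had the largest fall of the 10. It had 200.0, 195 and 182 CPM with TGFβ, against 337, 334 and 251 CPM with vehicle, and the ranges were well separated. The change was 1.60-fold lower (log2 -0.68, SE 0.10, adjusted p = 5.63e-05), and 1.74-fold lower without vehicle replicate 3 (adjusted p = 2.27e-07). ARHGEF17 had 87.1, 91.3 and 85.2 CPM with TGFβ, against 78.1, 76.5 and 68.8 CPM with vehicle. It rose 1.18-fold without overlap (log2 0.24, SE 0.05, adjusted p = 0.00247), and 1.14-fold without vehicle replicate 3 (adjusted p = 0.00822). ASAP1 had 211, 219 and 227 CPM with TGFβ, against 194, 197 and 186 CPM with vehicle, and it rose 1.14-fold without overlap (log2 0.19, SE 0.05, adjusted p = 0.00792), with a log2 difference of 0.17 without vehicle replicate 3 (adjusted p = 0.0216). In all, 5 genes were higher and 2 lower with no overlap between the 2 groups, a pattern found in 46.6% of all tested genes (23.0% higher and 23.7% lower).

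**Figure D2:**
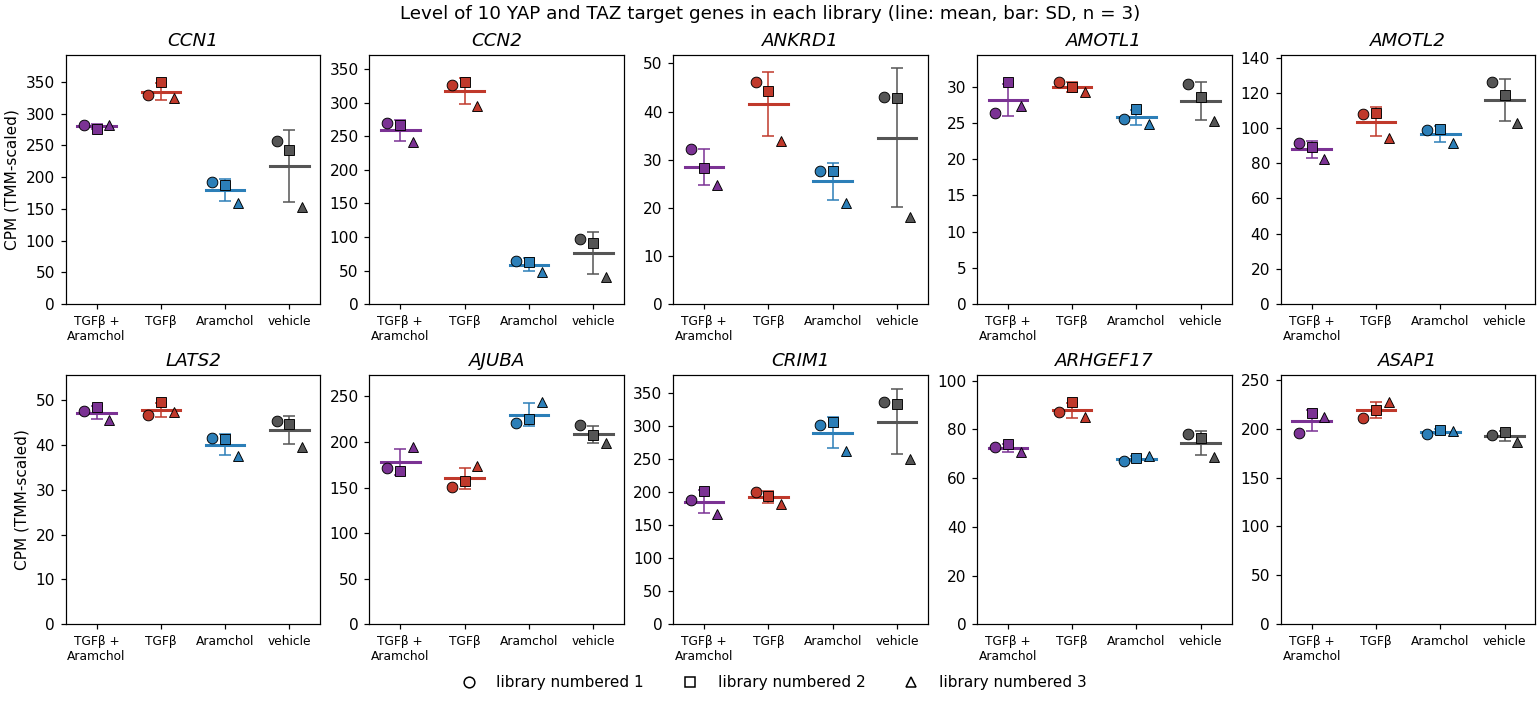
CPM of each of the 10 genes in the 12 libraries, 1 panel per gene, with groups on the horizontal axis, a marker shape for each replicate number, and a bar for the mean with its SD. CCN2 lies at 295 to 331 CPM in the TGFβ libraries and at 40.6 to 97.3 CPM in the vehicle libraries.

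Aramchol on top of TGFβ lowered 1 of the 10 genes past the threshold, ARHGEF17. In this comparison of TGFβ + Aramchol with TGFβ, 2.25% of all tested genes were called, 1.36% lower and 0.890% higher. The log2 difference was below 0 in 9 of the 10 genes, with a median of -0.16 against 0.00 over all tested genes. An unadjusted p under 0.05 was found for 4 of the 10 and for 3705 of the 21567 tested genes. CCN1, CCN2, ANKRD1, AMOTL2 and ARHGEF17 were lower with no overlap between the groups, and 12.2% of all tested genes had that pattern (23.6% in either direction, 11.5% higher).

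ARHGEF17 had 72.8, 73.9 and 70.7 CPM with TGFβ + Aramchol, against 87.1, 91.3 and 85.2 CPM with TGFβ. The gap was wide beside the spread within each group. It fell by 0.28 on the log2 scale (SE 0.05, edgeR adjusted p = 0.0176), and the call was lost when TGFβ + Aramchol replicate 1 or 2 or TGFβ replicate 1 or 2 was left out (adjusted p from 0.0515 to 0.0895). CCN1 had 283, 276 and 281 CPM with TGFβ + Aramchol, against 329.8, 350.4 and 324 CPM with TGFβ. Its libraries did not overlap, and the log2 difference was -0.26 (SE 0.13, adjusted p = 0.347). CCN2 had 269.7, 266 and 241 CPM with TGFβ + Aramchol, against 327, 331 and 295 CPM with TGFβ. Here too every combined library was below every TGFβ library, with a log2 difference of -0.29 (SE 0.21, adjusted p = 0.532).

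ANKRD1 had 32.2, 28.3 and 24.8 CPM with TGFβ + Aramchol, against 46.2, 44.4 and 33.9 CPM with TGFβ. It had the largest log2 difference of the 10, -0.54, with an SE of 0.24 (adjusted p = 0.25). AMOTL2 had 91.8, 89.5 and 82.5 CPM with TGFβ + Aramchol, against 108, 108 and 94.2 CPM with TGFβ (log2 difference -0.24, SE 0.08, adjusted p = 0.126). In both genes the ranges were close but did not meet. AJUBA was the exception in sign, with 171, 168 and 195 CPM with TGFβ + Aramchol, against 150.4, 158 and 173 CPM with TGFβ (log2 0.15, SE 0.07, adjusted p = 0.272). The log2 differences of the other 4 genes, AMOTL1, LATS2, CRIM1 and ASAP1, lay between -0.09 and -0.02 and none passed.

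Vehicle replicate 3 touched these calls although it belongs to neither group, because all 12 libraries share 1 estimate of the spread. Without it, 4 genes were lower: CCN1 (log2 -0.26, SE 0.06, adjusted p = 0.0201), ANKRD1 (-0.55, SE 0.12, adjusted p = 0.0136), AMOTL2 (-0.24, SE 0.06, adjusted p = 0.0343) and ARHGEF17 (-0.28, SE 0.04, adjusted p = 0.00188). CCN2 then had an adjusted p of 0.0622 at a log2 difference of -0.29 (SE 0.09). The share of all tested genes called was 5.43%, with 3.20% lower. The log2 differences themselves moved by little, and the standard errors were smaller. With only the libraries numbered 1 and 2, the same 4 genes and CCN2 were lower (5 of 10, against 8.51% of all genes called and 5.01% lower).

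Aramchol alone called 0 of the 10 genes relative to vehicle in edgeR, and DESeq2 also called 0. Only 0.357% of all tested genes were called in edgeR. An unadjusted edgeR p under 0.05 was found for 2 of the 10 and for 2533 of the 21567 tested genes. The log2 difference was below 0 in 8 of the 10, with a median of -0.13 against -0.01 over all tested genes. CCN1 had 192, 187 and 159.7 CPM with Aramchol, against 257, 243 and 153 CPM with vehicle (log2 -0.28, SE 0.13, adjusted p = 0.439). CCN2 had 64.8, 63.0 and 47.4 CPM with Aramchol, against 97.3, 91.4 and 40.6 CPM with vehicle (log2 -0.39, SE 0.22, adjusted p = 0.515). ANKRD1 had 27.7, 27.7 and 21.0 CPM with Aramchol, against 43.0, 42.8 and 18.0 CPM with vehicle (log2 -0.44, SE 0.24, adjusted p = 0.499). In each of these 3 genes vehicle replicate 3 lay below the whole Aramchol group and the other vehicle libraries lay above it. AMOTL2 was lower without overlap, at 99.1, 99.2 and 91.3 CPM with Aramchol, against 126, 119 and 103 CPM with vehicle (log2 -0.26, SE 0.08, adjusted p = 0.173). AJUBA was higher without overlap, at 221, 225 and 244 CPM with Aramchol, against 218, 208 and 199 CPM with vehicle (log2 0.14, SE 0.07, adjusted p = 0.442). Groups without overlap made up 16.0% of all tested genes in this comparison, 7.74% higher and 8.26% lower.

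Without vehicle replicate 3, 4 of the 10 genes were lower with Aramchol, against 1.75% lower among all tested genes (2.74% in either direction). CCN1 was 1.39-fold lower (log2 -0.48, SE 0.07, adjusted p = 0.00171), CCN2 1.62-fold lower (-0.69, SE 0.10, adjusted p = 0.00202), ANKRD1 1.68-fold lower (-0.75, SE 0.13, adjusted p = 0.00604) and AMOTL2 1.27-fold lower (-0.35, SE 0.07, adjusted p = 0.0127). With only the libraries numbered 1 and 2, these 4 and ARHGEF17 were lower, and their log2 differences were -0.40 for CCN1, -0.56 for CCN2, -0.63 for ANKRD1, -0.31 for AMOTL2 and -0.19 for ARHGEF17 (7.09% of all genes called, 3.86% lower). The size and the call of the Aramchol difference in these genes thus depended on whether vehicle replicate 3 was in the comparison.

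**Figure D3:**
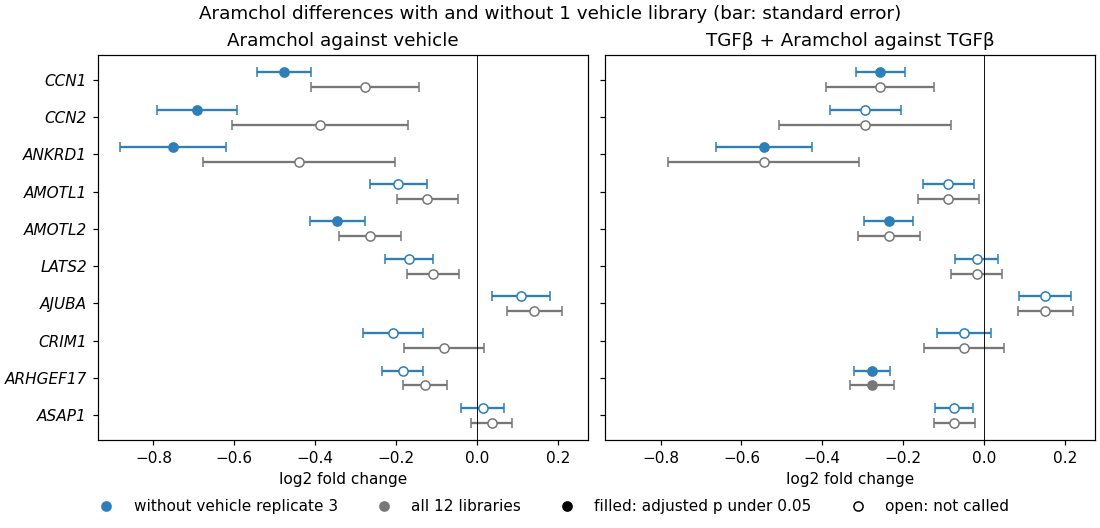
Log2 fold change with its SE for each of the 10 genes in Aramchol against vehicle and in TGFβ + Aramchol against TGFβ, from all 12 libraries and without vehicle replicate 3, with filled points for genes past an adjusted p of 0.05. In Aramchol against vehicle, CCN1, CCN2 and ANKRD1 lie at -0.48, -0.69 and -0.75 without that library and at -0.28, -0.39 and -0.44 with it.

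The TGFβ response was also measured in the presence of Aramchol. Relative to Aramchol, the TGFβ + Aramchol libraries were higher in CCN1 (log2 0.64, SE 0.13, adjusted p = 0.00169), CCN2 (2.15, SE 0.22, adjusted p = 1.91e-06) and LATS2 (0.24, SE 0.06, adjusted p = 0.01). They were lower in AJUBA (-0.37, SE 0.07, adjusted p = 0.000645) and CRIM1 (-0.64, SE 0.10, adjusted p = 0.000119). These were 5 of 10 genes, beside 30.2% of all tested genes, 16.0% higher and 14.2% lower. LATS2 had 47.6, 48.5 and 45.6 CPM with TGFβ + Aramchol, against 41.6, 41.2 and 37.4 CPM with Aramchol, and its call was lost without Aramchol replicate 3 (adjusted p = 0.0559). CRIM1 had 188, 202 and 168 CPM with TGFβ + Aramchol, against 302, 306 and 263 CPM with Aramchol.

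Relative to vehicle, the TGFβ + Aramchol libraries were higher in 2 genes and lower in 3, beside 35.2% of all tested genes, 18.2% higher and 17.0% lower. CCN2 was 3.39-fold higher (log2 1.76, SE 0.22, adjusted p = 1.28e-05), or 2.75-fold without vehicle replicate 3 (adjusted p = 1.03e-08). CCN1 was 1.29-fold higher (log2 0.36, SE 0.13, adjusted p = 0.0463). The CCN1 call was lost in 9 of the 12 fits that left out 1 library, all but those without Aramchol replicate 3 and vehicle replicates 1 and 2 (adjusted p from 0.0540 to 0.101). CRIM1 was 1.65-fold lower (log2 -0.73, SE 0.10, adjusted p = 3.28e-05), AMOTL2 1.32-fold lower (-0.40, SE 0.08, adjusted p = 0.000707) and AJUBA 1.17-fold lower (-0.23, SE 0.07, adjusted p = 0.017). The log2 differences without vehicle replicate 3 were -0.85 for CRIM1, -0.48 for AMOTL2, -0.26 for AJUBA and 0.16 for CCN1, which then missed the threshold (adjusted p = 0.0773). The AJUBA call was lost without TGFβ + Aramchol replicate 1 or 2 or vehicle replicate 1 (adjusted p from 0.0611 to 0.0734). Without vehicle replicate 3, ANKRD1 was also lower in this comparison (log2 -0.59, adjusted p = 0.00202), and without TGFβ + Aramchol replicate 1, ASAP1 was higher (adjusted p = 0.0353). The comparisons share control libraries: the vehicle libraries serve 3 of them and the TGFβ + Aramchol libraries serve 3, so their values are set side by side and are not independent.

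Whether Aramchol changed the response to TGFβ was tested by the interaction, the difference between the log2 fold change of TGFβ with Aramchol and that without it. With all 12 libraries, none of the 10 genes passed in edgeR, and DESeq2 called 0, beside 0.0139% of all tested genes called in edgeR. An unadjusted edgeR p under 0.05 was found for 0 of the 10 and for 1137 of the 21567 tested genes. The interaction ran from -0.15 (ARHGEF17, SE 0.08) to 0.09 (CCN2, SE 0.30). For CCN1 it was 0.02 (SE 0.19) and for ANKRD1 -0.10 (SE 0.33). Differences in response of that size were not detectable at this spread between libraries. The values without vehicle replicate 3 were 0.40 for CCN2 (SE 0.13, adjusted p = 0.638), 0.22 for CCN1 (SE 0.09, adjusted p = 0.685) and 0.21 for ANKRD1 (SE 0.18, adjusted p = 0.857), so that 1 library set the size for CCN2 and CCN1 and the sign for ANKRD1. None of the 10 passed there in edgeR, beside 0.0314% of all tested genes called. An unadjusted edgeR p under 0.05 was found there for 2 of the 10. The share of all tested genes with such a p is not given here, so that count is a description only.

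**Figure D4:**
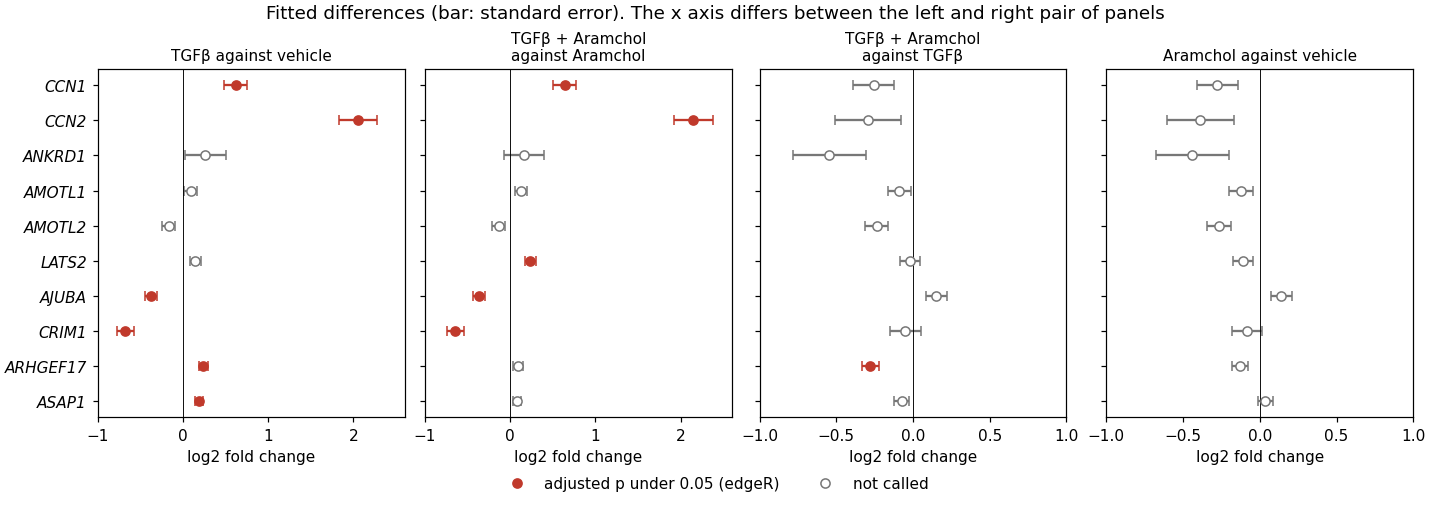
Log2 fold change with its SE for each of the 10 genes in 4 comparisons, with filled red points for genes past an adjusted p of 0.05. CCN2 lies at 2.06 for TGFβ against vehicle and at 2.15 for TGFβ + Aramchol against Aramchol, while ARHGEF17 at -0.28 is the only filled point for TGFβ + Aramchol against TGFβ.

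Within groups, several of the 10 genes varied together from library to library. The correlation of the deviations from the group means over the 12 libraries was 0.99 for CCN1 with CCN2, 0.97 for CCN2 with ANKRD1 and 0.94 for CCN1 with ANKRD1. CRIM1, which fell with TGFβ while CCN2 rose, had a correlation of 0.92 with CCN2 on this measure, against -0.78 over the log2 CPM themselves. AJUBA and ASAP1 followed the others less, with correlations from -0.38 (with AMOTL2) to 0.52 (with ASAP1) for AJUBA and from -0.17 (with AMOTL2) to 0.52 (with AJUBA) for ASAP1. The points share depth and the replicate numbers, and vehicle replicate 3 is the farthest point in CCN1, CCN2 and ANKRD1, so these are descriptions.

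The RNA of the coactivators themselves did not pass the test with TGFβ. YAP1 averaged 134 ± 0.878 CPM with TGFβ and 131 ± 7.42 CPM with vehicle (log2 0.03, SE 0.05, adjusted p = 0.753), and WWTR1 averaged 72.4 ± 3.79 CPM with TGFβ and 78.0 ± 1.76 CPM with vehicle (log2 -0.11, SE 0.05, adjusted p = 0.113, SD over n = 3 each). Of 10 listed coactivators and TEAD partners 8 were tested, of which 3 rose with TGFβ and 0 fell. Among all tested genes 37.0% were called, 18.9% higher and 18.1% lower, so the share called among the 8 was near that of all genes. The 3 that rose were VGLL3 (log2 1.13), VGLL4 (0.59) and TEAD2 (0.45), of which VGLL3 and VGLL4 bind TEAD factors as cofactors. TEAD1 (0.02), TEAD3 (0.12) and TEAD4 (-0.10) did not pass. Between TGFβ + Aramchol and TGFβ 0 of the 8 passed in edgeR, and DESeq2 called 1, beside 4.83% of all tested genes called in DESeq2. An unadjusted edgeR p under 0.05 was found for 2 of the 8 and for 3705 of the 21567 tested genes. YAP1 averaged 142 ± 8.29 CPM with TGFβ + Aramchol and 134 ± 0.878 CPM with TGFβ.

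Of 18 kinases and adaptors of the Hippo core, 3 rose with TGFβ and 5 fell, beside 37.0% of all tested genes called. The counts without vehicle replicate 3 were 6 higher and 4 lower, beside 34.2% of all tested genes. The 3 that rose with all 12 libraries were FRMD6 (log2 2.13), a FERM domain protein that acts upstream of the kinases, WWC2 (0.82), which binds LATS kinases, and PTPN14 (0.81), a phosphatase that binds YAP. STK3 (-0.31), STK4 (-0.26), SAV1 (-0.24), WWC3 (-0.40) and MAP4K4 (-0.31) fell. The size for STK3 leaned on vehicle replicate 3. STK3 had 14.7, 14.9 and 15.2 CPM with TGFβ, against 15.7, 17.1 and 22.9 CPM with vehicle. In log2 CPM its gap between vehicle replicate 3 and the mean of vehicle replicates 1 and 2 was 0.48. Between TGFβ + Aramchol and TGFβ, FRMD6 fell by 0.28 on the log2 scale (269 ± 0.794 CPM with TGFβ + Aramchol and 327 ± 9.79 CPM with TGFβ, adjusted p = 0.0239) and MAP4K4 fell by 0.28 (adjusted p = 0.0257). STK3 had a log2 difference of 0.32 that did not pass (adjusted p = 0.147).

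Of 20 other YAP and TAZ targets, all tested, 13 rose with TGFβ and 5 fell, beside 18.9% higher and 18.1% lower among all tested genes. Their median log2 fold change was 0.45, against -0.03 over all tested genes. INHBA, a subunit of activin, changed by 4.17 on the log2 scale and averaged 90.5 ± 7.67 CPM with TGFβ and 5.03 ± 0.952 CPM with vehicle. F3, tissue factor, changed by 1.78 and TNFRSF12A, a receptor of the TNF family, by 1.39. These values and counts are from all 12 libraries. F3 had 107, 108 and 60.6 CPM in the vehicle libraries. In log2 CPM the gap between vehicle replicate 3 and the mean of vehicle replicates 1 and 2 was -0.83 for F3. It was -0.50 for INHBA and -0.35 for TNFRSF12A. PTPN14 is counted both in this list and in that of the Hippo core. Between TGFβ + Aramchol and TGFβ, 3 of the 20 fell and 0 rose, beside 1.36% lower and 0.890% higher among all tested genes. The 3 were INHBA (log2 -0.82, SE 0.13, adjusted p = 0.00888), CCDC80 (-0.53, SE 0.08, adjusted p = 0.00542) and NUAK2 (-0.32, SE 0.07, adjusted p = 0.0353). INHBA averaged 51.2 ± 2.35 CPM with TGFβ + Aramchol and 90.5 ± 7.67 CPM with TGFβ. Without vehicle replicate 3 the counts in that comparison were 5 lower and 1 higher, beside 5.43% of all tested genes called and 3.20% lower.

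Targets of SRF and its MRTF cofactors, which respond to actin state, were described beside the YAP and TAZ targets because the pathways share that input. Of 13 SRF and MRTF targets 10 rose with TGFβ and 0 fell, beside 18.9% higher and 18.1% lower among all tested genes. Their median log2 fold change was 0.68. TAGLN (3.63), CNN1 (3.59) and TPM1 (2.88) encode actin-binding proteins of contractile cells. These values are from all 12 libraries. In log2 CPM the gap between vehicle replicate 3 and the mean of vehicle replicates 1 and 2 was -1.02 for TAGLN. It was -1.02 for CNN1 and -0.50 for TPM1. Between TGFβ + Aramchol and TGFβ 4 of the 13 fell and 0 rose, with a median of -0.31. Among all tested genes 1.36% were lower and 0.890% higher there. MYL9, a myosin light chain, averaged 144 ± 11.3 CPM with TGFβ + Aramchol and 236 ± 6.16 CPM with TGFβ (log2 -0.71, adjusted p = 0.0153), and TPM1 averaged 1338 ± 113 CPM with TGFβ + Aramchol and 1834 ± 92.2 CPM with TGFβ (-0.45, adjusted p = 0.0324). ACTB, beta actin, had a log2 difference of -0.40 (adjusted p = 0.0354). Without vehicle replicate 3, 9 of the 13 were lower in this comparison, beside 3.20% of all tested genes. In Aramchol against vehicle the count without that library was 9 lower, beside 1.75% of all tested genes. With all 12 libraries, Aramchol against vehicle called 0 of the 13 in edgeR, beside 0.357% of all tested genes. An unadjusted edgeR p under 0.05 was found for 6 of the 13 and for 2533 of the 21567 tested genes. DESeq2 called 1 higher and 1 lower, beside 1.83% of all tested genes called.

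All 10 direct SMAD targets, genes bound by the receptor-activated SMAD factors of the TGFβ pathway, rose with TGFβ, beside 18.9% of all tested genes. Their median log2 fold change was 2.80. PMEPA1 (4.20), SMAD7 (3.34) and BHLHE40 (2.69) had the smallest adjusted p. Between TGFβ + Aramchol and TGFβ 0 of these 10 passed in edgeR, and their median was -0.09. An unadjusted edgeR p under 0.05 was found for 2 of them and for 3705 of the 21567 tested genes. DESeq2 called 1 lower, beside 4.83% of all tested genes called. Without vehicle replicate 3 the edgeR count was 2 lower, beside 3.20% lower among all tested genes.

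**Figure D5:**
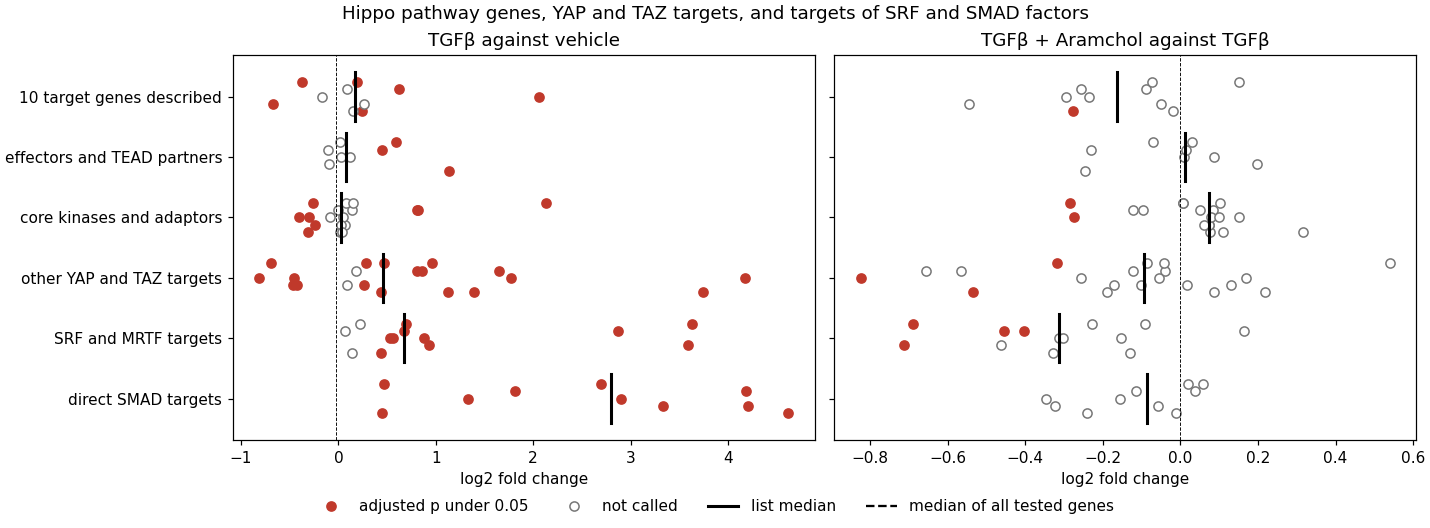
Log2 fold change of each tested gene of the Hippo, YAP and TAZ, SRF and SMAD lists in TGFβ against vehicle and in TGFβ + Aramchol against TGFβ, with a line for the median of each list. The medians of the SMAD list are 2.80 and -0.09, and those of the SRF and MRTF list are 0.68 and -0.31.

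Close relatives of the 10 genes gave their own values. Of 14 listed paralogs 12 were tested, and with TGFβ 3 rose and 4 fell, beside 18.9% higher and 18.1% lower among all tested genes, and 3 were higher and 5 lower without vehicle replicate 3. AMOT, the founding angiomotin, was 2.64-fold lower (8.22 ± 1.23 CPM with TGFβ and 21.7 ± 1.65 CPM with vehicle, SD, n = 3 each), and LIMD1, a LIM domain relative of AJUBA, was 1.93-fold lower (26.1 ± 1.19 CPM with TGFβ and 50.4 ± 2.99 CPM with vehicle). ASAP3 had a log2 fold change of -0.39.

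The genes whose log2 CPM followed CCN1, CCN2 or ANKRD1 most closely were taken from 14378 genes over the 12 libraries. For CCN1 they were ZNF532 (Pearson r 0.992), NEIL2 (0.988), AOPEP (0.984), FHL2 (0.984) and UBE2E1 (0.982). For CCN2 they were GREM1 (0.996), ANXA8 (0.995), the lincRNA ENSG00000276850 (0.994), ANXA8L1 (0.994) and THBS1 (0.994), where ANXA8 and ANXA8L1 are near-identical copies whose reads may be split. For ANKRD1 they included MMP19 (0.952), SLC19A1 (0.950), CLCA2 (0.943) and TNFRSF21 (0.941). THBS1 averaged 2410.1 ± 63.7 CPM with TGFβ and 642 ± 211 CPM with vehicle, and GREM1 averaged 684 ± 35.6 CPM with TGFβ and 246 ± 57.3 CPM with vehicle (SD, n = 3 each). The libraries share depth and group, so r is a description.

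Annotated neighbours share exonic bases with some of the 10 genes. LINC01013, on the opposite strand, shares 278 bases, or 11.9% of the exonic bases of CCN2, and had 11 to 45 counts per library. ARHGEF17-AS1 shares 979 bases, or 9.87% of ARHGEF17, and had 11 to 29 counts per library. The strand setting of the counting is not stated in the labels, so reads from such overlaps cannot be told apart.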

How the data were processed

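RNA of H69 cholangiocytes was sequenced in 12 libraries, 3 in each of 4 groups taken from the sample labels. The authors deposited a table of counts (whole reads assigned to each gene). Reads were aligned with STAR 2.7.9a and assigned with featureCounts of Subread to GRCh38, per the submitters' processing notes; the sources used here give neither annotation release nor strand setting. Symbols were found for 62625 of 62703 gene identifiers. Counts were tested with edgeR 4.0.16 in R 4.3.3 (TMM scaling, filterByExpr, quasi-likelihood test, all 12 libraries, 4 group means), with Benjamini-Hochberg adjustment over 21567 tested genes in each comparison and a threshold of 0.05. The CPM used the totals of tested genes and TMM factors; TPM used exonic lengths. The biological coefficient of variation was 8.90%, and total counts of 52279922 to 70339925 leave counting error small for these 10 genes. No pair of libraries agreed within sampling noise (chi-square per gene 4.16 or more). Alternatives were DESeq2 1.42.0, other scalings and filters, a replicate block, a term for number 3, fewer libraries and each library left out; the lists were also recomputed without vehicle replicate 3, a choice made after seeing the data. The 10 genes and the lists were chosen with earlier results of these data known. Besides them, the text names YAP1, WWTR1, TEAD1 to TEAD4, the 3 genes of each list with the smallest adjusted p in TGFβ against vehicle and, where any passed, in TGFβ + Aramchol against TGFβ, paralogs, and the 5 genes most like CCN1, CCN2 and ANKRD1; other called kinases were named after their values were seen. Some genes of the marker lists and of the likeness ranking are not reported here. The test was checked on simulated counts. Promoter sequences came from RefSeq (GRCh38.p14).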

Additional observations from a re-analysis of the deposited data

How the results depend on the processing

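Over 60 gene and comparison results and 1250 alternative values, 1182 kept their side of the threshold, 48 passed it where the reported value did not, 20 lost it and 0 called values reversed. Of the 1182, 39 that never passed changed sign. For Aramchol against vehicle, where 0 of the 10 genes and 0.357% of all tested genes were called, no filter on low counts gave 4 (1.26% of all genes), the term for number 3 gave 1 (2.49%), the libraries numbered 1 and 2 alone gave 5 (7.09%), and leaving out each library gave 0 to 4. For TGFβ + Aramchol against TGFβ, where 1 gene and 2.25% of all genes were called, no filter gave 5 (3.04%), the term for number 3 gave 3 (7.80%), the libraries numbered 1 and 2 gave 5 (8.51%), the groups of the comparison alone gave 4 (4.76%), and leaving out each library gave 0 to 4. For TGFβ + Aramchol against vehicle, with 5 called, leaving out each library gave 3 to 5. The counts stayed at 6 to 7 for TGFβ against vehicle, 4 to 5 for TGFβ + Aramchol against Aramchol and 0 for the interaction when each library was left out. CCN1 in TGFβ + Aramchol against vehicle also lost its call with upper quartile scaling, a stricter filter and the 2 groups alone (adjusted p from 0.0591 to 0.0877). Apart from what leaving out a library or the shared spread sets by construction, the cause was not tested. Libraries of the same number were weakly related, most clearly those numbered 3. Deviations from group means correlated at 0.00739 to 0.221 between libraries of the same number and at -0.146 to 0.0907 between those of different numbers. Only the pairs of libraries numbered 3 were all above 0.1 (0.111 to 0.221). The main fit carried no term for the number, and the cause of this likeness was not tested. With the replicate block, 1 gene was called for Aramchol against vehicle (2.15% of all genes), 3 for TGFβ + Aramchol against TGFβ (7.04%) and 8 for TGFβ against vehicle (42.1%), where AMOTL2 (adjusted p = 0.00752) and LATS2 (adjusted p = 0.027) were added. The term for number 3 also gave 8 there (42.5%), with AMOTL2 (adjusted p = 0.0066) and LATS2 passing. With 3 libraries a group, the SE of CCN2 (0.22) and ANKRD1 (0.23) in TGFβ against vehicle limits what can be seen in those genes.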
